A study of Mus musculus with 10 samples.

Results

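The genes of the kinesin and myosin motors were followed in microglia sorted from mouse brain and in brain tissue that had not been sorted. The members were the protein-coding genes of the deposited table whose symbol was Kif, Kifc, Myo or Myh followed by a number and, in most cases, letters. This gave 82 genes, 43 of them kinesins and 39 myosins, of the 56748 genes listed, 21970 of which were protein-coding. The choice rested on names alone and used no measured value. Motor genes with other kinds of name, such as the centromere kinesin gene Cenpe, and the light chains of both motors were therefore no members and were followed in separate lists.

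Kinesins are motor proteins that burn ATP to walk along microtubules, and they carry vesicles, organelles and RNA or build and move the mitotic spindle. Myosins pull on actin filaments. Conventional myosin-2 assembles into contractile filaments, whereas the unconventional classes tether membranes to the actin cortex, move cargo over short distances or shape protrusions. Neurons depend on kinesins for transport along axons and dendrites, while microglia, the resident macrophages of the brain, extend and retract processes and engulf material through their actin cortex.

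The microglia group held 5 libraries of CD11b-positive cells sorted from brain, with 400000 cells per library, and like bulk brain it was sequenced from poly(A)-selected RNA. The bulk brain group held 5 libraries of hemi brains, which contain all brain cells, microglia included. All mice were young C57BL/6 males under standard husbandry, with no treatment or genotype difference stated and no numeric age given in the labels. A sort on CD11b takes any cell that carries this integrin, so that other myeloid cells of the brain can enter the gate. The labels gave all libraries the same batch value and left unsaid whether each library had its own animal, so the p-values reflect only how these samples vary, a variation that may be technical.

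Libraries held 25087489 to 28514509 counts in microglia and 25845049 to 34709215 in bulk brain. All 10 microglia markers, among them Itgam, which encodes CD11b, were higher in microglia, with summed levels of 34425 to 35682 CPM against 252 to 291 CPM in bulk brain (CPM, the usual depth-scaled count, here on library totals scaled for composition by TMM). All 10 neuron markers were lower, at 6.52 to 12.2 CPM in sum in microglia against 6132 to 7256 CPM in bulk brain, and none of the 10 was at 0 in every microglia library. The 7 border macrophage markers summed to 478 to 618 in microglia and 9.9 to 11.9 CPM in bulk brain. Of 10 blood leukocyte markers, 3 passed the low-count filter, and the whole list summed to 31.7 to 42.6 in microglia and 0.798 to 1.51 CPM in bulk brain. The part of border macrophages and blood leukocytes in the results below was not tested. In the tissue libraries, fewer cells of a type and less RNA per cell cannot be told apart. The chi-square of counts per degree of freedom between libraries was 7.49 to 12.4 within microglia. In bulk brain it was 5.45 to 7.76 among libraries 3 to 5 and 106 to 278 between these and libraries 1 and 2, which stood apart. Between libraries 1 and 2 it was 46.6, so that these also differed from each other.

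Microglia carried a motor repertoire made mostly of myosins, and bulk brain carried one made mostly of kinesins. Summed over the 43 kinesin genes, the level was 1520.2 ± 92.7 in microglia and 7143 ± 1779 CPM in bulk brain (SD, n = 5 each). Summed over the 39 myosin genes it was 2621 ± 68.1 in microglia and 1972 ± 540 CPM in bulk brain, and the highest bulk brain library (2395 CPM) stayed below the lowest microglia library (2521 CPM). Bulk brain libraries 1 and 2 stood at 1501 and 1275 CPM, and libraries 3 to 5 at 2330.3 to 2395 CPM. On this TMM scale all genes tested summed to 1044601 to 1104708 in microglia and 909464 to 953405 CPM in bulk brain. The small gap to bulk brain libraries 3 to 5 therefore depends on the scaling. Per kilobase of gene length, myosins took 64.2 ± 1.73% of all motor reads in microglia, with libraries at 62.2 to 65.7%. In bulk brain they took 15.7 ± 0.497%, with libraries at 15.1 to 16.2%. These shares are descriptions and were not tested.

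**Figure D1:**
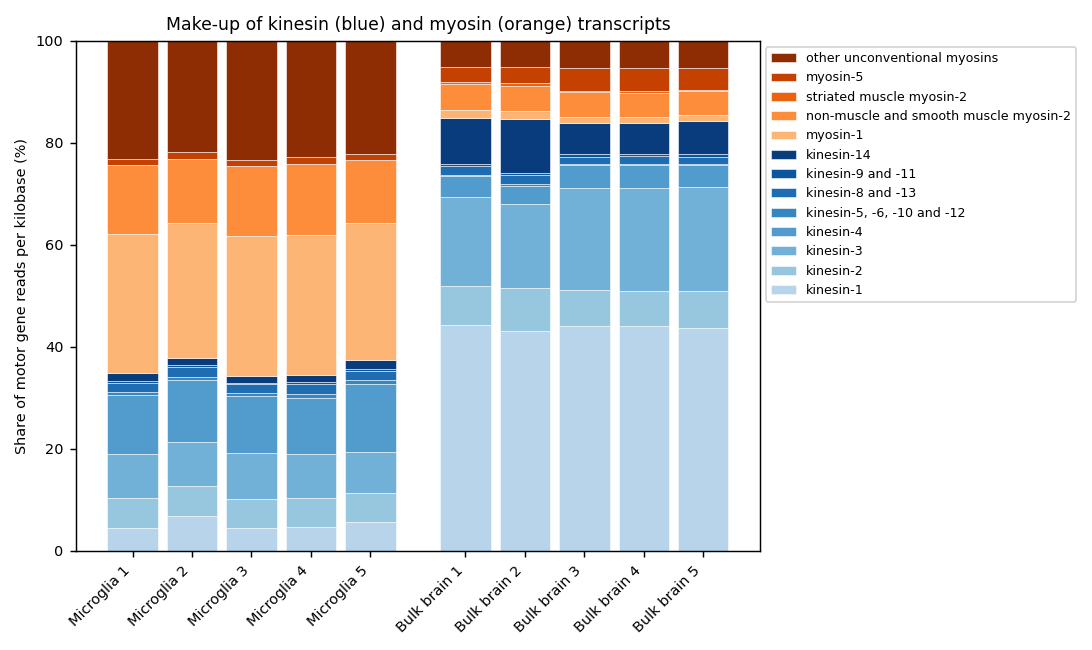
Share of each motor family in all kinesin and myosin reads per kilobase (vertical axis, percent) for each of the 5 microglia and 5 bulk brain libraries (bars); blue shades are kinesin families and orange shades myosin families. Myosins take 62.2 to 65.7% of the microglia bars and 15.1 to 16.2% of the bulk brain bars, where kinesin-1 alone takes 43.1 to 44.3%.

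Of the 82 genes, 70 passed the low-count filter, 38 kinesins and 32 myosins. A gene was called at an adjusted p under 0.05 in edgeR's quasi-likelihood test, fitted over all 18969 genes that passed. In microglia 22 motor genes were higher and 37 lower, which is 31.4% and 52.9% of those tested. Over all genes tested 37.2% were higher and 43.9% lower (81.0% in either direction), and over the protein-coding ones 35.9% and 47.5% (83.4%). The share of motor genes called in either direction (84.3%) was thus close to the background. The counts by family and list below are to be read beside these background shares. Among kinesins 12 rose, 19 fell and 7 missed the threshold (81.6% called), and among myosins the counts were 10, 18 and 4 (87.5% called). The log2 difference is given throughout as microglia minus bulk brain, followed by its SE after ±. Its median was -0.63 for kinesins and -1.88 for myosins, against -0.14 for all genes tested. Members at or near 0 in microglia, such as Kif6, Myh3, Myh15, Myo3b and Myo16, could pass the low-count filter through bulk brain alone. Others, such as Kif2c, could pass it through microglia alone. The medians and the shares called therefore do not describe either class as a whole. Summed over all its genes, the myosin level was higher in microglia than in bulk brain on the TMM scale, but only narrowly against bulk brain libraries 3 to 5. The groups did not overlap, library by library, for 20 higher (28.6%) and 36 lower (51.4%) motor genes, against 34.2% and 40.5% of all genes tested and 33.7% and 44.2% of the protein-coding ones. A call with a change of at least 2-fold was made for 15 higher (21.4%) and 36 lower (51.4%) motor genes, 25.0% and 56.2% of the myosins and 18.4% and 47.4% of the kinesins. Over all genes tested these shares were 27.8% and 36.8%, and over the protein-coding ones 24.9% and 39.1%. With bulk brain libraries 1 and 2 left out 21 motor genes were higher and 38 lower, and with libraries 3 to 5 left out 26 were higher and 37 lower. Of the 59 genes called, 5 moved by over 1.5-fold without libraries 1 and 2 (Kif15, Kif20b, Kif27, Kif2c and Myh6), and these with Kif1b, Kif26b, Myo3b and Myo5a, 9 in all, did so without libraries 3 to 5.

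**Figure D2:**
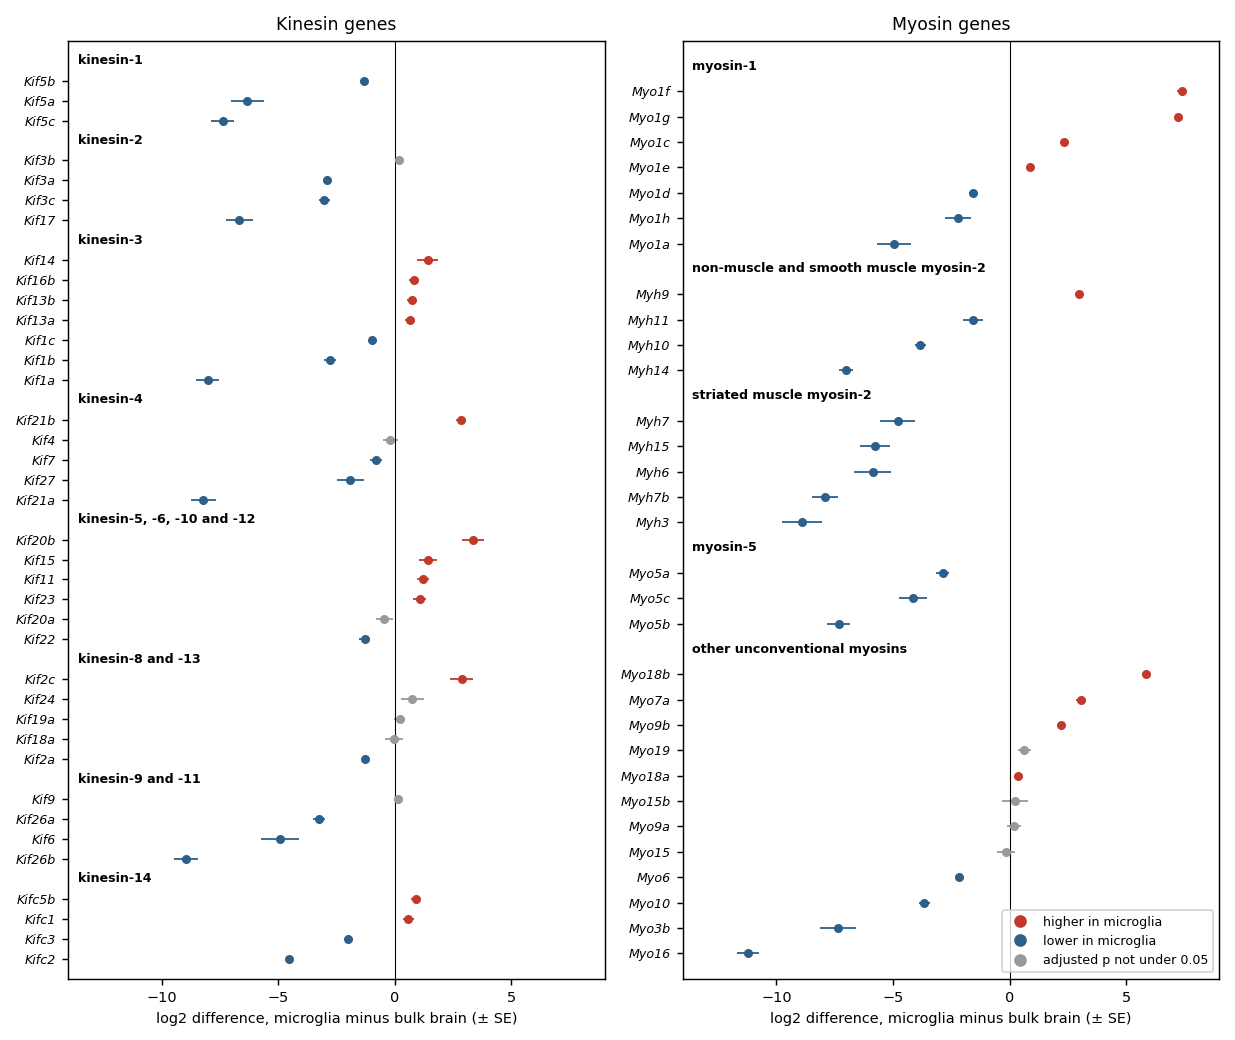
Log2 difference, microglia minus bulk brain, for the kinesin (left) and myosin (right) genes tested and reported here, grouped by family; points are fitted values, bars ± SE, red higher, blue lower and grey not past an adjusted p of 0.05. Myo1f, Myo1g and Myo18b stand farthest to the right (7.39, 7.24 and 5.84), and within most families the points fall on both sides of 0; the fitted positions of Myh3, Myo16, Myo3b and Myh15, which had 0 to 2 counts in all microglia libraries together, depend on the fit's prior count.

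The class I myosins, single-headed motors that link membranes to actin, held the largest rises. Myo1f, a class I myosin known from myeloid cells (ENSMUSG00000024300, chromosome 17, 33774681 to 33826738, plus strand, GRCm39), stood at 378, 363, 368, 371 and 361 CPM in microglia libraries 1 to 5, against 2.44, 2.89, 1.42, 2.08 and 2.12 CPM in bulk brain libraries 1 to 5. The groups lay far apart, with little spread in microglia and a wider relative spread in bulk brain. The log2 difference was 7.39 ± 0.19 (SE; edgeR adjusted p = 1.9e-11), and per kilobase Myo1f was the highest of all 82 motor genes in microglia, at 74.1 ± 1.34 CPM per kilobase, against 0.44 ± 0.108 in bulk brain. Myo1g, a class I myosin of blood cell lineages (ENSMUSG00000020437, chromosome 11, 6456548 to 6470965, minus strand, GRCm39), stood at 96.0, 94.2, 93.8, 99.5 and 97.3 in microglia and 0.548, 0.577, 0.728, 0.653 and 0.661 CPM in bulk brain. Its log2 difference was 7.24 ± 0.12 (SE; edgeR adjusted p = 2.8e-12). For Myo1f, Myo1g and Myo18b the bulk brain level was 0.594 to 1.75% of the microglia level, inside the range of the 10 microglia markers (0.57 to 2.26%).

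Sequence around the starts of these 2 genes is shown because they rose most. The windows run from 250 bases before to 50 bases after the start, 5′ to 3′ on the gene's strand, from RefSeq on GRCm38.p6, a build other than the GRCm39 of the table (chr17:33555457-33555756, plus strand, for Myo1f and chr11:6520909-6521208, minus strand, for Myo1g). Capitals mark GAGGAA, a form of the site bound by the myeloid transcription factor PU.1, searched on both strands. Other forms of the site were not searched, so a window without GAGGAA may still hold such a site.
Myo1f: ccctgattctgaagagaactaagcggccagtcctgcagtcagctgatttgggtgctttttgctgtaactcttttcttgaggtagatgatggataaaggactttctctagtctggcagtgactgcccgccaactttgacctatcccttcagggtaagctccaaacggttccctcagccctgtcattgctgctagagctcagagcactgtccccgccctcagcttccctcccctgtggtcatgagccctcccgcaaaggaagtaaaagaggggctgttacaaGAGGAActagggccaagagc
Myo1g: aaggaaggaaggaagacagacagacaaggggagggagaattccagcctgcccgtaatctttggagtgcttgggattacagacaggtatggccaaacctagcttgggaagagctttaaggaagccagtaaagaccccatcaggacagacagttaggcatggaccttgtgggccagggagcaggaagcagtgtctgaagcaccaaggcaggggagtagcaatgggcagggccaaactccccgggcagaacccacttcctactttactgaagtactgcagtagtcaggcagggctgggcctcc
The letters GAGGAA occurred once in the Myo1f window, starting 31 bases after the start, and did not occur in the Myo1g window. Promoter windows were found for 66 of the 82 motor genes (77 windows). GAGGAA stood in 22.7% of the 22 windows of higher motor genes, in 13.9% of the 36 windows of lower ones and in 28.3% of all 32851 windows of the table.

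Of the 8 class I genes, 5 were higher and 3 lower. Myo1c, a broadly expressed membrane-tethering myosin, stood at 107, 111, 109, 95.5 and 104 in microglia and 20.7, 15.6, 23.3, 21.5 and 22.1 CPM in bulk brain, with no overlap (by 2.35 ± 0.12 log2 units, adjusted p = 4.1e-09 by edgeR). Myo1e, the long-tailed relative of Myo1f, rose by a log2 of 0.88 ± 0.14 (edgeR adjusted p = 7.6e-05). Myo1d was lower at 7.82 ± 1.3 in microglia and 23.2 ± 3.19 CPM in bulk brain, and Myo1a, known from intestinal brush border, and Myo1h were lower at 0.0397 ± 0.0688 and 0.218 ± 0.173 CPM in microglia, against 1.34 ± 0.582 and 1.02 ± 0.5 CPM in bulk brain. The make-up of the class differed accordingly: per kilobase, Myo1f took 60.6 ± 0.902% of class I reads in microglia and 3.14 ± 1.15% in bulk brain, where Myo1d, Myo1e and Myo1c took 24.7, 23.9 and 21.6%. Class I as a whole took 27.1 ± 0.451% of motor reads per kilobase in microglia and 1.35 ± 0.16% in bulk brain.

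The non-muscle myosin-2 genes, whose products form the contractile filaments of the cell cortex, changed in opposite directions. Myh9, the heavy chain of non-muscle myosin 2A (ENSMUSG00000022443, chromosome 15, 77644787 to 77726375, minus strand, GRCm39), stood at 770.2, 719, 749, 749.9 and 676 in microglia and at 87.4, 64.4, 102, 103 and 100.5 CPM in bulk brain. Every microglia library was above every bulk brain library (3.0 ± 0.14 log2 units, adjusted p = 1.9e-09 by edgeR). Myh10, the heavy chain of the 2B form that neurons use in growth cones and spines, stood at 23.3, 28.3, 23.1, 24.7 and 25.6 in microglia and at 276, 186, 438, 449.9 and 433 CPM in bulk brain (by -3.83 ± 0.24 log2 units, adjusted p = 3.2e-08 by edgeR). Bulk brain libraries 1 and 2 were the lowest of their group, and still well above all microglia libraries. Myh14, the heavy chain of the 2C form, stood at 0.397, 0.349, 0.501, 1.11 and 0.709 in microglia and 91.8, 105, 71, 64.7 and 65.3 CPM in bulk brain (by -7.01 ± 0.31 log2 units, adjusted p = 1.3e-09 by edgeR). Per kilobase, Myh9 took 95.2 ± 0.646% of these 4 genes in microglia and 13.3 ± 0.6% in bulk brain, where Myh10 took 62.4 ± 10.6% and Myh14 22.1 ± 10.1%.

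Myh11, the smooth muscle heavy chain, stood at 3.85, 5.16, 2.89, 0.597 and 1.83 in microglia and 9.12, 7.01, 8.48, 8.23 and 9.94 CPM in bulk brain (by -1.57 ± 0.42 log2 units, adjusted p = 0.0045 by edgeR). Its microglia libraries spread widely, with libraries 1 and 2 high. The 8 smooth muscle and pericyte markers, 6 of which were tested and all 6 lower, summed to 16.6, 18, 8.94, 7.96 and 7.17 CPM in the same microglia libraries and to 129.6 to 170.1 CPM in bulk brain, and among them Acta2 stood at 3.22, 5, 1.73, 0.676 and 0.584 in microglia and 7.84 to 15.2 CPM in bulk brain. The part of smooth muscle cells in the microglia level of Myh11 was not tested.

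Of 21 genes for myosin light chains and their regulators, 6 rose, 13 fell and 2 missed the threshold (median log2 difference -1.59). The background over all genes tested was 37.2% higher and 43.9% lower, with a median of -0.14. Stk10, a kinase that phosphorylates ezrin-type membrane linkers, had the largest rise of this list, at 209.7 ± 7.59 in microglia and 8.54 ± 1.57 CPM in bulk brain (by 4.62 ± 0.14 log2 units, adjusted p = 8.5e-11 by edgeR). The other 5 higher genes were Rock1 and Rock2, kinases that raise light chain phosphorylation, Ppp1r12a and Ppp1r12c, targeting subunits of the phosphatase that removes it, and the light chain gene Myl12a. Cit, a kinase of the cleavage furrow that is also expressed in neurons, had the largest fall among those with at least 5 CPM, at 2.41 ± 0.425 in microglia and 142 ± 47.6 CPM in bulk brain (by -5.87 ± 0.29 log2 units, adjusted p = 2.9e-09 by edgeR).

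Among the other unconventional myosins, 14 in all and 12 tested, 4 rose, 4 fell and 4 missed the threshold. Myo9b, a motor that carries a GTPase-activating domain, stood at 291, 278, 286, 294 and 275 in microglia and 48.2, 44.1, 71.4, 75.6 and 72.2 CPM in bulk brain, with no overlap (by 2.19 ± 0.16 log2 units, adjusted p = 1e-07 by edgeR). Myo7a, best known from inner ear hair cells and retinal pigment epithelium, stood at 204, 183, 198, 191 and 176 in microglia and 16.9, 13.9, 27.5, 27.2 and 29 CPM in bulk brain, again with no overlap (3.06 ± 0.21 log2 units, adjusted p = 5.2e-08 by edgeR). These were the fourth and the fifth highest motor genes per kilobase in microglia, after Myo1f, Myh9 and Kif21b, at 37.9 and 21.5 CPM per kilobase, against 8.31 and 2.58 in bulk brain.

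Myo18b, a myosin known from striated muscle sarcomeres (ENSMUSG00000072720, chromosome 5, 112836742 to 113044228, minus strand, GRCm39), stood at 128, 124, 113, 93.8 and 122 in microglia and 2.52, 2.14, 2.33, 1.49 and 1.68 CPM in bulk brain (by 5.84 ± 0.18 log2 units, adjusted p = 7.3e-11 by edgeR). All microglia libraries were high, library 4 least so. The 8 striated muscle markers summed to 8.0 to 9.7 in microglia and 8.68 to 10.2 CPM in bulk brain. Of 4 tested, Tnni2, a fast troponin subunit, was higher (6.53 to 7.75 in microglia and 0 to 0.231 CPM in bulk brain), Acta1 and Ttn, genes of the actin and titin filaments of muscle, were lower, and Mylpf did not pass the threshold. Myo18a, the relative of Myo18b and a Golgi and cortex protein with a motor-like domain, stood at 252, 248, 247, 237 and 244 in microglia and 176, 179.8, 191, 205 and 202 CPM in bulk brain, close together but with no overlap (by 0.37 ± 0.08 log2 units, adjusted p = 0.001 by edgeR), and its call was lost without bulk brain library 1 (0.22, adjusted p = 0.054) and with median-of-ratios scaling (0.20, adjusted p = 0.054).

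Myo16, a brain-enriched myosin of neurons, had the largest fall among the motor genes with counts in both groups. It had 2 counts in all microglia libraries together and 8055 in bulk brain, where it stood at 35.8, 34.5, 54.5, 57.5 and 58.4 CPM. Both microglia counts were in library 1, and the pooled level was 3009-fold higher in bulk brain (95% interval 833 to 24853, exact and for counting error only; edgeR adjusted p = 7e-10). Myo10, a motor of filopodia tips, was lower at 4.2 ± 0.982 in microglia and 52.9 ± 10.6 CPM in bulk brain, and Myo6, which walks towards the minus end of actin filaments, at 31.5 ± 2.81 in microglia and 142 ± 32.4 CPM in bulk brain (by -3.65 ± 0.22 and -2.18 ± 0.16 log2 units, adjusted p = 1.8e-08 and 1.3e-07 by edgeR). Myo3b had 1 count in microglia and 335 in bulk brain.

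For Myo9a, which like Myo9b carries a GTPase-activating domain, the direction turned with the choice of bulk brain libraries. The gene stood at 165, 159, 165, 156 and 145 in microglia and 79.3, 56.2, 178, 182 and 189.9 CPM in bulk brain, so that the microglia libraries lay between bulk brain libraries 1 and 2 and libraries 3 to 5. The log2 difference was 0.20 ± 0.30 with all libraries (SE; edgeR adjusted p = 0.54), -0.37 against libraries 3 to 5 (adjusted p = 2.3e-05) and 1.13 against libraries 1 and 2 (adjusted p = 3.8e-05). Leaving out bulk brain library 1 or 2 alone gave -0.08 and -0.14. Myo19, a mitochondrial myosin, stood at 14.2 ± 1.89 in microglia and 9.1 ± 3.78 CPM in bulk brain and missed the threshold (0.64 ± 0.28 log2 units, adjusted p = 0.054 by edgeR), which it passed in 6 alternatives, among them without bulk brain library 5 (0.71, adjusted p = 0.044) and against libraries 1 and 2 (1.30, adjusted p = 0.00094). Against libraries 3 to 5 the Myo19 difference was 0.14 (adjusted p = 0.35). Myo15 and Myo15b were low in both groups and did not pass the threshold, and the small positive difference of Myo15b (0.23) turned negative without microglia library 4 (-0.12) or bulk brain library 1 (-0.03).

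All 3 class V myosins, which carry vesicles along actin, were lower in microglia. Myo5a (ENSMUSG00000034593, chromosome 9, 74978297 to 75130970, plus strand, GRCm39) stood at 78.4, 84.5, 79.6, 91.8 and 79.4 in microglia and 360.5, 304, 770.5, 798 and 787 CPM in bulk brain. The bulk brain libraries fell into a lower pair and a higher trio, all above the microglia libraries (-2.87 ± 0.28 log2 units, adjusted p = 1.5e-06 by edgeR). Myo5b, known from recycling endosomes of epithelia and dendrites, stood at 0.397, 0.31, 0, 0.0398 and 0.0834 in microglia and 22.1, 20.3, 30.6, 32.5 and 32.2 CPM in bulk brain (by -7.33 ± 0.50 log2 units, adjusted p = 5.6e-08 by edgeR). Myo5c stood at 0.477, 0.31, 0.386, 0.0796 and 0 in microglia and 4.3, 1.76, 5.86, 5.08 and 5.62 CPM in bulk brain (by -4.14 ± 0.61 log2 units, adjusted p = 5.3e-05 by edgeR). Myo5a held 99.2 ± 0.637% of class V reads per kilobase in microglia and 92.0 ± 1.77% in bulk brain.

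The cargo adaptors of class V myosins were split between paralogs. Among 9 adaptor genes 2 rose, 5 fell and 2 missed the threshold (median log2 difference -0.43). The background over all genes tested was 37.2% higher and 43.9% lower, with a median of -0.14. Mlph, which encodes melanophilin, the link between Rab27a and Myo5a on melanosomes, stood at 142, 143, 144, 122 and 129 in microglia and 3.97, 2.86, 3.75, 2.64 and 3.08 CPM in bulk brain, and Rab27a itself at 76, 81.8, 72.8, 73.2 and 70.1 in microglia and 8.13, 6.93, 8.44, 8.97 and 9.06 CPM in bulk brain. Neither gene's groups overlapped (5.38 ± 0.15 and 3.17 ± 0.11 log2 units, adjusted p = 2.9e-11 and 1.6e-10 by edgeR). Rab27b, the paralog of Rab27a, had the largest fall of the list, at 0.0715 ± 0.0709 in microglia and 44.4 ± 10.4 CPM in bulk brain, and Myrip, a related Rab27 effector, stood at 0.666 ± 0.227 in microglia and 56.7 ± 6.72 CPM in bulk brain (by -9.20 ± 0.43 and -6.40 ± 0.23 log2 units, adjusted p = 2.2e-09 and 2.3e-10 by edgeR).

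The striated muscle heavy chains were at or near 0 in microglia. Of 10 genes, 5 were tested and all 5 were lower. They could pass the low-count filter through bulk brain alone, so that this count does not describe the list as a whole. Myh7b, the member highest in bulk brain, stood at 0.159, 0, 0.0771, 0 and 0 CPM in microglia, against 12.4, 19.2, 10.5, 10.5 and 10.3 CPM in bulk brain (-7.92 ± 0.56 log2 units, adjusted p = 7.9e-08 by edgeR). Myh3, the embryonic form, had 0 counts in every microglia library and 2.93, 3.03, 1.53, 1.78 and 0.908 CPM in bulk brain, and was at least 85.5-fold lower, taking 3 counts in the whole group as the floor (edgeR adjusted p = 2.7e-05). The cardiac form Myh6 stood at 0, 0, 0.0771, 0 and 0.208 in microglia and 1.86, 1.41, 5.46, 4.9 and 3.99 CPM in bulk brain, and the cardiac form Myh7 at 0, 0.31, 0.347, 0 and 0 in microglia and 3.75, 3.06, 5.39, 3.68 and 3.39 CPM in bulk brain. Neither gene's groups overlapped. Myh15 had counts in microglia library 1 alone (0.0795 CPM), against 0.946 to 1.38 CPM in bulk brain. Several of these genes lie in clusters of similar sequence, so that low counts may be shared among copies.

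**Figure D3:**
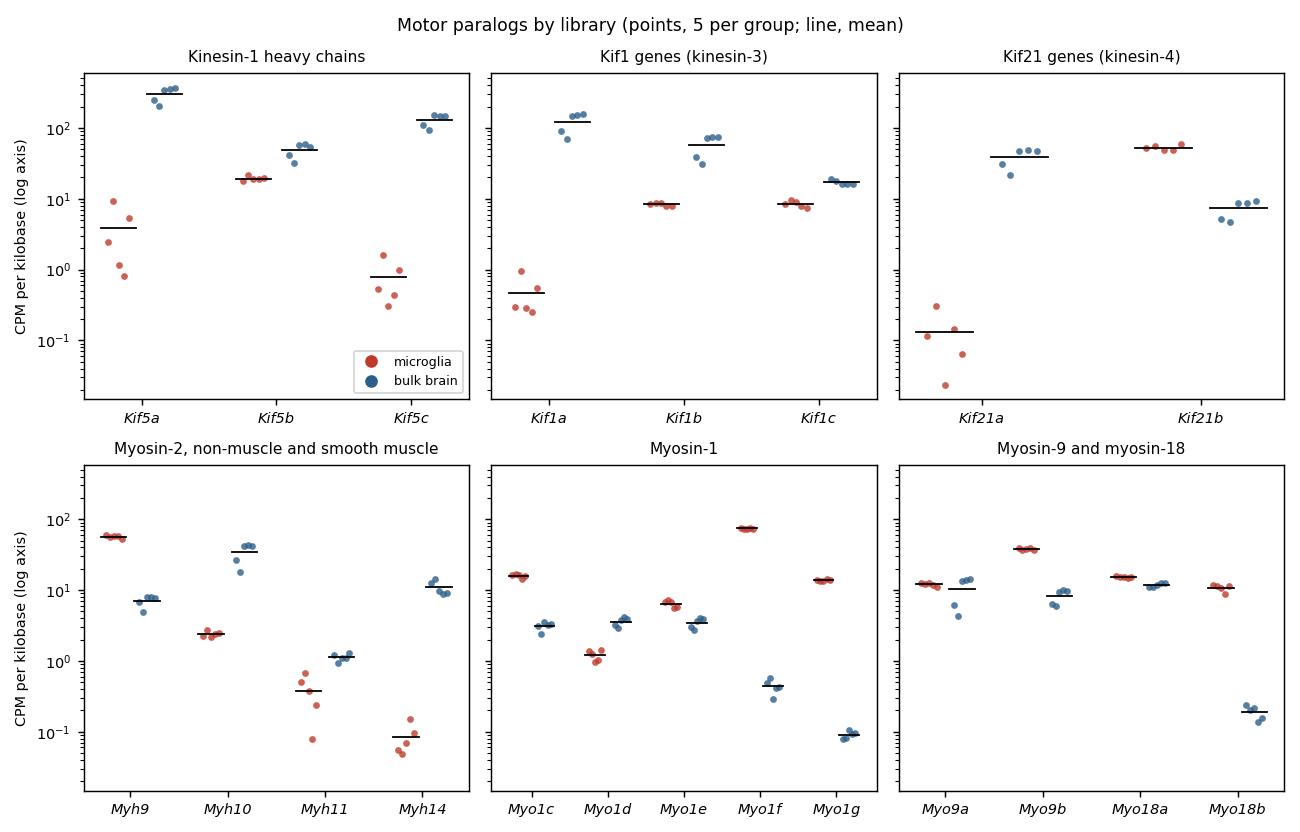
Level per library in CPM per kilobase (log axis) of motor paralogs, microglia in red left of bulk brain in blue, 5 points per group and a line at the mean. In microglia the neuronal forms Kif5c and Kif1a fall far below Kif5b and Kif1b. The neuronal form Kif5a lies below Kif5b in all 5 microglia libraries, least so in libraries 2 and 5. Kif21a and Kif21b change places, and Myh9, Myo1f, Myo1g, Myo9b and Myo18b stand above bulk brain in all 5 microglia libraries.

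Kinesin-1 is the founding plus-end motor of axonal transport, with heavy chains encoded by Kif5a, Kif5b and Kif5c. All 3 genes were lower in microglia, to very different degrees. Kif5a, a largely neuronal form (ENSMUSG00000074657, chromosome 10, 127061565 to 127099217, minus strand, GRCm39), stood at 17.4, 64.6, 8.21, 5.65 and 37.4 in microglia and 1738, 1424, 2414, 2489.9 and 2558 CPM in bulk brain, where it was the highest motor gene per kilobase. The groups were far apart, and the microglia libraries differed widely among themselves (-6.32 ± 0.69 log2 units, adjusted p = 4.1e-06 by edgeR). Kif5c, the other largely neuronal form, stood at 3.81, 11.6, 2.2, 3.1 and 7.13 in microglia and 791, 679, 1079, 1064 and 1042 CPM in bulk brain (by -7.38 ± 0.49 log2 units, adjusted p = 4.3e-08 by edgeR). Kif5b, the ubiquitous form, stood at 144, 171, 150.2, 151 and 155 in microglia and 334, 255, 462, 467 and 428 CPM in bulk brain, with no overlap (by -1.34 ± 0.16 log2 units, adjusted p = 9e-06 by edgeR). Per kilobase, Kif5b took 82.8 ± 11.8% of kinesin-1 in microglia and 10.1 ± 0.467% in bulk brain, where Kif5a took 62.8 ± 1.25%. Kinesin-1 as a whole took 5.28 ± 1.03% of motor reads per kilobase in microglia and 43.9 ± 0.464% in bulk brain.

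Neuron, oligodendrocyte and astrocyte markers, summed by list, were highest in the same microglia libraries as Kif5a. Libraries 2 and 5 were the highest for Kif5a, for Kif5c and for the synaptic vesicle kinesin gene Kif1a. They were also the highest for the 10 neuron markers, which summed to 8.9, 12.2, 6.52, 6.61 and 11 CPM in microglia libraries 1 to 5, against 6132 to 7256 CPM in bulk brain. The same held for the 8 oligodendrocyte markers, all lower in microglia, which summed to 181, 246, 166, 143 and 209 in microglia and 5618 to 7605 CPM in bulk brain. The 8 astrocyte markers, all lower too, summed to 140.2, 161, 133, 139 and 146 in microglia and 2538 to 3878 CPM in bulk brain, again highest in libraries 2 and 5, and no marker of the 3 lists was at 0 in every microglia library. Other markers did not share this order. Endothelial markers summed to 108, 97, 82, 76.6 and 78 CPM in microglia libraries 1 to 5. Smooth muscle and pericyte markers summed to 16.6, 18, 8.94, 7.96 and 7.17 CPM, and ependymal and choroid plexus markers were lowest in library 5. Among single neuron markers, Rbfox3 was highest in library 4 (1.79 CPM), and Nefm was highest in library 1 and at 0 in library 2. The part of neuronal, oligodendrocyte or astrocyte RNA in the microglia level of Kif5a, Kif5c and Kif1a was not tested. The Kif5a level in microglia was 1.25% of that in bulk brain, whereas the 10 neuron markers lay at 0.0394 to 0.397% (median 0.134%) and the 8 oligodendrocyte markers at 0.0607 to 13.4% (median 0.99%).

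Set on the same scale, the 37 lower motor genes fell into a wide range. Of these, 7 stood in microglia at or under the highest neuron marker (0 to 0.385% of bulk brain): Kif1a, Kif21a, Kif26b, Myh3, Myh7b, Myo16 and Myo3b. A further 14 stood at 0.598 to 7.95%, among them Kif5a, Kif5c, Kif17, Kifc2, Myh10, Myh14, Myo5b and Myo10. The remaining 16, at 10.4 to 57.2%, included Kif1b, Kif1c, Kif2a, Kif3a, Kif3c, Kif5b, Myo5a and Myo6.

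Kinesin-2 motors carry cargo into cilia and along axons as a Kif3a partner pair bound to the adaptor Kifap3, or as the Kif17 dimer. The 4 genes did not move as a unit. Kif3b did not pass the threshold, at 98.7, 109, 96.9, 97 and 101 in microglia and 81.6, 70.5, 98.7, 95.2 and 95.5 CPM in bulk brain, where the groups overlapped (0.19 ± 0.11 log2 units, adjusted p = 0.12 by edgeR). Its difference turned to -0.03 without bulk brain library 2, and it passed the threshold with upper-quartile scaling (0.26, adjusted p = 0.032). Kif3a stood at 18.5 ± 1.99 in microglia and 139 ± 19.7 CPM in bulk brain, and Kif3c at 19.9 ± 3.22 in microglia and 161 ± 47 CPM in bulk brain (by -2.91 ± 0.13 and -3.02 ± 0.22 log2 units, adjusted p = 1.3e-09 and 1.3e-07 by edgeR). Kif17, a dendritic motor, stood at 0.2 ± 0.242 in microglia and 20.7 ± 1.72 CPM in bulk brain (by -6.67 ± 0.59 log2 units, adjusted p = 6e-07 by edgeR). Kif3b took 69.3 ± 2.25% of kinesin-2 reads per kilobase in microglia and 19.5 ± 1.11% in bulk brain, where Kif3a took 48.3 ± 2.53%. Per kilobase the Kif3b level thus exceeded that of its partner Kif3a in microglia, at 17.8 ± 0.873 and 5.16 ± 0.554 CPM per kilobase, and lay below it in bulk brain, at 15.7 ± 2.12 and 38.9 ± 5.5.

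Kinesin-3 motors carry synaptic vesicle precursors, lysosomes and endosomes. Of 8 genes, 7 were tested, with 4 higher and 3 lower. Kif1a, the carrier of synaptic vesicle precursors, stood at 2.78, 8.96, 2.7, 2.35 and 5.09 CPM in microglia, far below its 840.1, 654, 1362, 1409 and 1468 CPM in bulk brain (by -8.03 ± 0.49 log2 units, adjusted p = 2.1e-08 by edgeR). Kif1b stood at 149 ± 7.35 in microglia and 1036 ± 381 CPM in bulk brain, and Kif1c at 61.9 ± 5.81 in microglia and 124 ± 9.86 CPM in bulk brain (by -2.79 ± 0.25 and -1.0 ± 0.10 log2 units, adjusted p = 6.2e-07 and 1.3e-06 by edgeR). The endosomal members were higher by smaller steps. Kif13b rose by a log2 of 0.73 ± 0.19, Kif16b by 0.81 ± 0.22 and Kif13a by 0.66 ± 0.21 (SE; edgeR adjusted p = 0.0042, 0.0052 and 0.011). Against bulk brain libraries 3 to 5 these differences were 0.30, 0.37 and 0.21 (adjusted p = 0.0014, 0.0014 and 0.0026), and against libraries 1 and 2 they were 1.21, 1.26 and 1.18. Kif13a stood at 74.6, 74.8, 71.5, 72.3 and 71.6 in microglia and 35.2, 25.2, 53.7, 58.5 and 58 CPM in bulk brain, and its call was lost without bulk brain library 1 (0.44, adjusted p = 0.10) and with median-of-ratios scaling (0.48, adjusted p = 0.061). Per kilobase, Kif13b, Kif13a, Kif1c and Kif1b took 23.9, 22.9, 21.8 and 21.6% of kinesin-3 in microglia, and Kif1a 1.20%. In bulk brain Kif1a took 57.8% and Kif1b 27.0%.

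In kinesin-4 a paralog pair changed places. Kif21b (ENSMUSG00000041642, chromosome 1, 136059127 to 136105736, plus strand, GRCm39), a motor that also pauses microtubule growth, stood at 639.7, 671, 594, 586 and 725 in microglia and 63.5, 57.5, 107, 107 and 113 CPM in bulk brain. All microglia libraries were high, with no overlap (2.84 ± 0.21 log2 units, adjusted p = 9.6e-08 by edgeR). Kif21a, its neuronal relative, stood at 0.755, 1.98, 0.154, 0.955 and 0.417 in microglia and 204, 141, 307, 312 and 304 CPM in bulk brain (by -8.21 ± 0.53 log2 units, adjusted p = 3.6e-08 by edgeR). Per kilobase, Kif21b took 99.8 ± 0.197% of this pair in microglia and 15.9 ± 1.34% in bulk brain, and it was the highest kinesin in microglia, at 52.8 ± 4.73 CPM per kilobase, against 7.35 ± 2.2 in bulk brain. Kif7 and Kif27, a pair linked to cilia and Hedgehog signalling, were lower. Kif7 stood at 1.27, 1.32, 1.7, 1.07 and 1.58 in microglia and 3.5, 2.11, 1.89, 2.29 and 2.34 CPM in bulk brain (by -0.80 ± 0.25 log2 units, adjusted p = 0.01 by edgeR), and its call was lost with the replicate number as a block at nearly the same difference (-0.79, adjusted p = 0.056). Kif27 stood at 0.517, 2.33, 0.347, 0.517 and 0.792 in microglia and 1.83, 1.13, 4.66, 4.84 and 4.54 CPM in bulk brain, where the groups overlapped through microglia library 2 (-1.91 ± 0.58 log2 units, adjusted p = 0.0094 by edgeR). Against bulk brain libraries 1 and 2 alone its difference was -0.82 (adjusted p = 0.27).

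Among 18 kinesin light chain and cargo adaptor genes, 3 were higher and 15 lower, with a median log2 difference of -1.78. The background over all genes tested was 37.2% higher and 43.9% lower, with a median of -0.14. Fez2 had the largest rise, at 161, 179.5, 177, 175 and 182 in microglia and 65, 75.3, 50.2, 45.1 and 46.1 CPM in bulk brain, whereas its paralog Fez1, a neuronal kinesin-1 adaptor, stood at 0.273 ± 0.317 in microglia and 226 ± 46.3 CPM in bulk brain (by 1.63 ± 0.15 and -9.65 ± 0.49 log2 units, adjusted p = 7.7e-07 and 4.6e-09 by edgeR). The other higher genes were Plekhm1, an adaptor of late endosomes and lysosomes (0.97 ± 0.11), and the light chain gene Klc4 (0.72 ± 0.15). The largest fall was that of Mapk8ip2, a JNK scaffold that binds kinesin light chains, at 0.394 ± 0.2 in microglia and 358 ± 12.5 CPM in bulk brain (by -9.80 ± 0.30 log2 units, adjusted p = 7.4e-11 by edgeR). The kinesin-2 adaptor Kifap3 was lower, at 26.5 ± 2.47 in microglia and 322 ± 9.12 CPM in bulk brain (by -3.60 ± 0.10).

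Cytoplasmic dynein is the motor that walks the other way on microtubules. Of 27 genes for dynein, dynactin and their adaptors, 5 rose, 19 fell and 3 missed the threshold (median log2 difference -0.93). The background over all genes tested was 37.2% higher and 43.9% lower, with a median of -0.14. The heavy chain gene Dync1h1 stood at 571 ± 37.5 in microglia and 743 ± 263 CPM in bulk brain and did not pass the threshold (-0.38 ± 0.22 log2 units, adjusted p = 0.13 by edgeR). Bicd2, a cargo adaptor, had the largest rise, at 252 ± 8.22 in microglia and 86.7 ± 18 CPM in bulk brain (by 1.54 ± 0.14), while its paralog Bicd1 stood at 0.315 ± 0.24 in microglia and 60.3 ± 24.5 CPM in bulk brain (by -7.55 ± 0.50). The intermediate chain gene Dync1i1, a neuronal form, had the largest fall, at 0.198 ± 0.0787 in microglia and 145 ± 16.9 CPM in bulk brain (by -9.48 ± 0.22 log2 units, adjusted p = 1.1e-11 by edgeR), whereas the ubiquitous Dync1i2 stood at 167 ± 12.2 in microglia and 155 ± 5.5 CPM in bulk brain.

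The mitotic kinesins, which build the spindle, move chromosomes and complete cytokinesis, were low in both groups and mostly higher in microglia. Of 12 genes, 11 were tested, with 7 higher, 1 lower and 3 not past the threshold, a median log2 difference of 1.06 against -0.14 for all genes. Over all genes tested 37.2% were higher and 43.9% lower. Members low in bulk brain, such as Kif2c, Kif14 and Kif20b, could pass the low-count filter through microglia alone. The count and the median therefore do not describe the list as a whole. In sum the 12 genes stood at 29.2 to 32.1 in microglia and 14.6 to 20.5 CPM in bulk brain. With bulk brain libraries 1 and 2 left out, 5 of these 7 were still higher, Kif14 (1.0, adjusted p = 0.074) and Kifc1 (0.34, adjusted p = 0.22) lost the call, and Kif18b, which then passed the low-count filter, was higher (2.08, adjusted p = 0.0023). Kif20b, a kinesin-6 of the central spindle (ENSMUSG00000024795, chromosome 19, 34899761 to 34953145, plus strand, GRCm39), had the largest rise of any kinesin with all libraries, at 6.2, 6.4, 5.44, 7.76 and 6.38 in microglia and 0.11, 0.491, 0.4, 1.13 and 0.991 CPM in bulk brain (by 3.35 ± 0.46 log2 units, adjusted p = 3e-05 by edgeR). Kif2c, which depolymerizes microtubules at kinetochores, stood at 1.89 ± 0.489 in microglia and 0.256 ± 0.172 CPM in bulk brain (by 2.87 ± 0.50, edgeR adjusted p = 0.00022). Against bulk brain libraries 3 to 5 the order turned, with 2.75 for Kif20b and 3.49 for Kif2c, and against libraries 1 and 2 the differences were 4.35 and 2.12. Kif15 and Kif11, which hold the spindle poles apart, rose by a log2 of 1.42 ± 0.37 and 1.21 ± 0.27, and Kif23, which bundles the midzone, by 1.06 ± 0.27 (SE; edgeR adjusted p = 0.0039, 0.0015 and 0.0031).

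Other members of this set were lower, missed the threshold or passed it with groups that overlapped. Kif22, a chromosome arm motor, was lower at 3.38, 1.51, 2.74, 2.15 and 1.96 in microglia and 5.23, 6.18, 5.24, 5.82 and 6.17 CPM in bulk brain, with no overlap (by -1.29 ± 0.23 log2 units, adjusted p = 0.00026 by edgeR). Kif4 (-0.19 ± 0.34), Kif18a (-0.04 ± 0.39) and Kif20a (-0.45 ± 0.35) did not pass the threshold, and Kif18a turned to 0.16, 0.0 or 0.06 without microglia library 1, microglia library 3 or bulk brain library 4, and to 0.03 with upper-quartile scaling. Kif14, a midbody kinesin, stood at 0.795, 0.427, 0.617, 1.07 and 1.42 in microglia and 0.11, 0.346, 0.291, 0.564 and 0.303 CPM in bulk brain, overlapping (1.41 ± 0.45, edgeR adjusted p = 0.013). Kifc1, a minus-end spindle motor, stood at 2.15, 3.65, 2.54, 2.51 and 2.88 in microglia and 1.67, 1.67, 2.33, 1.49 and 2.01 CPM in bulk brain, overlapping (0.58 ± 0.23, edgeR adjusted p = 0.033). The Kifc1 call was lost in 14 of the alternatives, among them leaving out microglia library 2 (0.47) or 5 (0.58) or any bulk brain library (0.40 to 0.56), and its near-identical copy Kifc5b (log2 difference 0.89 ± 0.19) may share its reads. Kif18b was not tested and stood at 0.557 ± 0.138 in microglia and 0.139 ± 0.0527 CPM in bulk brain.

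Of 20 mitotic genes other than these kinesins, 11 rose, 3 fell and 6 missed the threshold (median log2 difference 1.14). The background over all genes tested was 37.2% higher and 43.9% lower, with a median of -0.14. The sums of the 20 genes overlapped, at 78.6 to 89.5 in microglia and 67.5 to 104 CPM in bulk brain. Here too, genes low in bulk brain, such as Aurkb, Bub1 and Ccnb1, could pass the low-count filter through microglia alone. Cenpf, a kinetochore protein gene, had the largest rise among those with at least 5 CPM, at 9.5 ± 1.35 in microglia and 0.866 ± 0.227 CPM in bulk brain (by 3.45 ± 0.23, edgeR adjusted p = 5.2e-08). Anln, which encodes a cytokinesis scaffold that is also expressed in myelinating cells, stood at 3.61 ± 0.694 in microglia and 53.9 ± 15.3 CPM in bulk brain, and Racgap1, the partner of Kif23 at the midzone, at 6.64 ± 2.1 in microglia and 12.8 ± 1.32 CPM in bulk brain (by -3.90 ± 0.25 and -0.95 ± 0.21 log2 units, adjusted p = 3.6e-08 and 0.0013 by edgeR). Anln alone made up 27.9 to 66.5 CPM of the bulk brain sums and 2.58 to 4.42 CPM of those in microglia. The overlap of the sums rested on this gene.

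**Figure D4:**
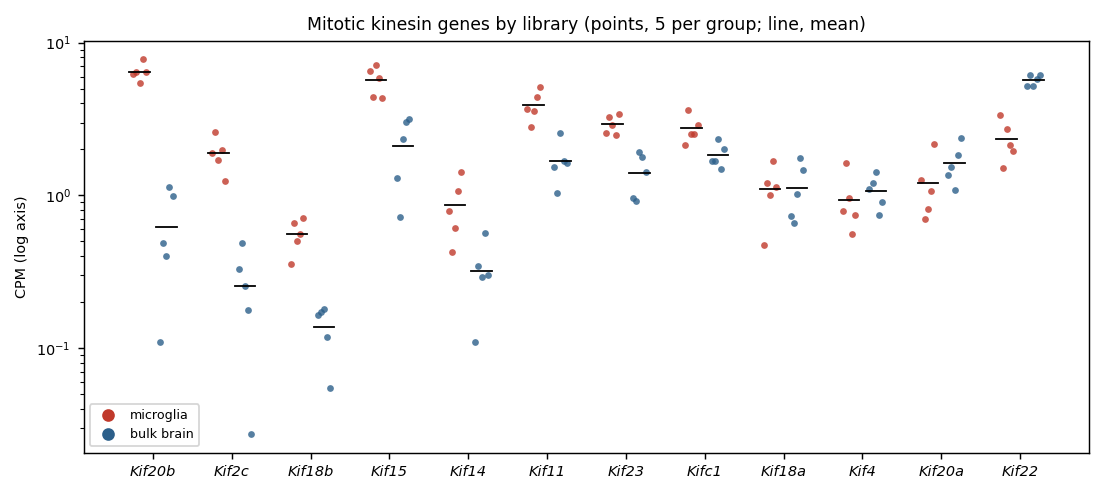
Level per library in CPM (log axis) of the 12 mitotic kinesin genes, microglia in red left of bulk brain in blue, with a line at each mean. From Kif20b to Kifc1 the microglia means lie above those of bulk brain, Kif18a, Kif4 and Kif20a overlap, and Kif22 is lower in every microglia library.

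Start-site sequence is shown for 4 of the mitotic kinesins, 3 that rose and Kif22, which fell, because cell cycle genes are known to carry the motifs CCAAT, bound by NF-Y, and TTTGAA, the cell cycle homology region bound by the DREAM complex. Windows are again 250 bases before to 50 after the start, 5′ to 3′ on the gene's strand, from RefSeq on GRCm38.p6, at chr19:37376132-37376431 (plus) for Kif11, chr9:61946750-61947049 (minus) for Kif23, chr7:127042371-127042670 (minus) for Kif22 and chr1:136467598-136467897 (plus) for Kif14. Capitals mark CCAAT and TTTGAA, searched on both strands, so that ATTGG and TTCAAA mark matches on the other strand.
Kif11: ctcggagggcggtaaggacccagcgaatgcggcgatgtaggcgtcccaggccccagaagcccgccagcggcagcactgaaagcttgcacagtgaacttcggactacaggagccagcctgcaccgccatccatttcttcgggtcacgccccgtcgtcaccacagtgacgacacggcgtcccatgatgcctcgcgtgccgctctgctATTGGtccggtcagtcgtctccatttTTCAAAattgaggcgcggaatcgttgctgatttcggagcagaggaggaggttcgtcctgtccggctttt
Kif23: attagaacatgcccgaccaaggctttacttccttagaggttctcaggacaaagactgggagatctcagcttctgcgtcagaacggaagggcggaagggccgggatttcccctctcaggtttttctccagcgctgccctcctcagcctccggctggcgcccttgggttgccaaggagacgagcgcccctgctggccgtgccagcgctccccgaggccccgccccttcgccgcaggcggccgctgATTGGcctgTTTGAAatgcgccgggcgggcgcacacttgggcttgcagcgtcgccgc
Kif22: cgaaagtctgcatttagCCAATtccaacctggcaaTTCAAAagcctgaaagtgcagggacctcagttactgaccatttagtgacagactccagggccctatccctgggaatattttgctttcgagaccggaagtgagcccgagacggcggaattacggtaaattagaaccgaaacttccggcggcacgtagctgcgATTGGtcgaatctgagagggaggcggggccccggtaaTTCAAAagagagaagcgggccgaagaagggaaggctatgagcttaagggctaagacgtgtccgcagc
Kif14: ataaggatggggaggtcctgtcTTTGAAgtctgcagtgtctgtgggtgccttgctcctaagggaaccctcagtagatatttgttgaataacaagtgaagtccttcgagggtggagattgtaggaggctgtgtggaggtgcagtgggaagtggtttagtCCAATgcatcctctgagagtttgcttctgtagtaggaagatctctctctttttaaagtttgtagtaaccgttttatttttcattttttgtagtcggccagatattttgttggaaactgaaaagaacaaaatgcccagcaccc
TTTGAA occurred in 10 of the 11 mitotic kinesin windows found (90.9%), against 17.9% of all 32851 windows. In the 100 bases around the start, from 50 before to 50 after, it occurred in 8 of the 11 (72.7%), against 4.94% of all. CCAAT occurred in 63.6% of the 11 windows and in 37.4% of all. In Kif11 the matches began 45 and 19 bases before the start, in Kif22 at -54 and -17 with a second pair farther upstream, and in Kif23 at -7 and 3, while in Kif14 the TTTGAA lay at -228. The lower gene Kif22 carried the same pair of motifs near its start as the higher gene Kif11. These are matches of letters and not tested sites.

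Other kinesins included motors of cilia and of microtubule minus ends. Kif2a, which depolymerizes microtubules in neurites, was lower at 38.9 ± 2.78 in microglia and 95.9 ± 14 CPM in bulk brain (by -1.30 ± 0.12 log2 units, adjusted p = 6.9e-07 by edgeR). Kifc2, a minus-end directed kinesin of neurons, stood at 12.4 ± 2.13 in microglia and 285 ± 14.1 CPM in bulk brain, and Kifc3 at 7.59 ± 0.723 in microglia and 31.1 ± 2.65 CPM in bulk brain (by -4.52 ± 0.13 and -2.03 ± 0.12 log2 units, adjusted p = 5.6e-11 and 1.3e-08 by edgeR). Kif26b, a kinesin-11 without known motility, had the largest fall of any kinesin, at 0.0795, 0.116, 0.0386, 0.159 and 0 in microglia and 26.1, 20.6, 54, 55 and 53 CPM in bulk brain (by -8.96 ± 0.51, edgeR adjusted p = 1.2e-08). Its relative Kif26a stood at 0.89 ± 0.228 in microglia and 8.57 ± 2.11 CPM in bulk brain.

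Genes linked to motile cilia did not move alike. Kif6 had counts in microglia library 3 alone (0.231 CPM) and 1.04 to 2.14 CPM in bulk brain (by -4.93 ± 0.81 log2 units, adjusted p = 0.00013 by edgeR). Kif9 stood at 6.34 ± 0.848 in microglia and 5.77 ± 1.2 CPM in bulk brain, and Kif19a at 4.72 ± 1.21 in microglia and 4.11 ± 1.01 CPM in bulk brain, neither past the threshold (0.14 ± 0.19 and 0.20 ± 0.24). The Kif9 difference turned to -0.06 or -0.07 without bulk brain library 1 or 2 and to -0.04 with median-of-ratios scaling. The 8 ependymal and choroid plexus markers, all lower in microglia, summed to 49.8 to 151 in microglia and 553 to 1311 CPM in bulk brain, and among them the cilia regulator Foxj1 stood at 0.0796 to 0.698 in microglia and 11.4 to 15.1 CPM in bulk brain. The part of ependymal cells in these levels was not tested. Kif24, which acts at centrioles, stood at 3 ± 0.656 in microglia and 1.79 ± 1.14 CPM in bulk brain (by 0.75 ± 0.50, edgeR adjusted p = 0.18). Its difference was 2.03 against bulk brain libraries 1 and 2 (adjusted p = 0.0073) and 0.10 against libraries 3 to 5 (adjusted p = 0.74).

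The 12 genes that did not pass the low-count filter were Kif12, Kif18b, Kif19b, Kif28, Kif2b, Myh1, Myh13, Myh2, Myh4, Myh8, Myo3a and Myo7b. Kif2b had no count in any library. Myh1, Myh2, Myh8, Myo3a and Myo7b had 0 counts in microglia and were at least 20.5-fold, 27.5-fold, 19.5-fold, 4.32-fold and 6.65-fold lower there by the same floor. On library totals without filter or TMM scaling, 3 counts in a single library correspond to 0.0864 to 0.12 CPM. The highest TMM-scaled value of any of these genes in any library was 1.01 CPM, for Myh2 in bulk brain.

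The strand setting of the counting is not given in the sources used here, so that reads of genes on opposite strands may be mixed. Kif20a overlaps Cdc23 by 2327 bases on the opposite strand, where Cdc23 had 5297 counts in microglia and 6491 in bulk brain, against 150 and 281 for Kif20a. Kif17 shares 10898 bases with Sh2d5 on the same strand, where Sh2d5 had 142 counts in microglia and 10319 in bulk brain, against 25 and 3496 for Kif17. Kifc2 overlaps Cyhr1 by 260 bases and Kif4 overlaps Pdzd11 by 832. Among the higher genes, Myo18b overlaps 1700095B10Rik by 8410 bases on the opposite strand, which had 15 counts in microglia and 1 in bulk brain, against 14630 and 341 for Myo18b. Myo9b overlaps Haus8 by 221 bases, which had 1689 counts in microglia and 1756 in bulk brain, against 35872 and 10418 for Myo9b.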

How the data were processed

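RNA-seq libraries of 5 microglia and 5 bulk brain samples were analysed from raw counts per gene that the authors deposited as a whole-series table with gene coordinates and lengths. All 10 sample columns were mapped by name. CASAVA, HISAT2 2.2.1, featureCounts 2.0 and the builds GRCm39 and mm39 are named, with no role or order, per the submitters' processing notes. For the strand setting, multi-mapping reads and annotation version, the sources used here give no value.

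Genes were filtered with filterByExpr by group, library totals were scaled by TMM, and microglia were set against bulk brain by the quasi-likelihood test of edgeR 4.0.16 in R 4.3.3, over all genes that passed, with Benjamini-Hochberg adjustment and a threshold of 0.05. Differences are log2, microglia minus bulk brain. The SE is the size of the log2 difference over the square root of F. CPM are counts scaled to TMM-adjusted library totals, and shares are descriptions on counts per kilobase of the table's gene length. Bounds take 3 counts in the whole group as the floor. Intervals and floors cover counting error only. The alternatives were other scalings and filters, DESeq2 1.42.0, limma 3.58.1 (voom), a replicate block, each library left out and either set of bulk brain libraries left out. The fit was also run on simulated counts with few changed genes and the same variation in every library. That setting is simpler than these data, so the run does not show how the fit performs on them. Same-numbered libraries were not treated as paired in the main fit. Their deviations from the group means correlated at -0.021 to 0.01. This cannot decide whether they shared an animal, because the split among bulk brain libraries weighs on these deviations and the labels leave it unsaid.

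Every member could be named. Values per library were given for the 8 highest per kilobase in microglia. The same was done for the 6 largest changes each way with at least 5 CPM and no overlap. It was also done for kinesin-1, non-muscle and smooth muscle myosin-2, myosin-5 and members whose call was lost. Further members were added where the text describes their spread. From each pathway list the largest change each way with at least 5 CPM was named, and paralogs or partners of those genes were added after their values were seen. The members and lists were chosen with earlier results of these data known. Promoter sequences came from RefSeq on GRCm38.p6 and were matched by symbol. A few results are not reported here.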

Additional observations from a re-analysis of the deposited data

Results flagged for a closer look

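Among 164 groups of 5 libraries (the motor genes in each group), 14 held a library whose gap to its nearest neighbour exceeded 0.71 of the group's range, the 95% critical value of Dixon's test for 5 values. For normally spread values chance flags about 1 in 20 groups. That rate does not hold here, because a group with counts in 1 library alone is always flagged. Of these, 7 were single libraries with a few counts in a microglia group otherwise at or near 0: Kif12 (0.0834 CPM) and Kif28 (0.0834 CPM) in library 5, Myh13 (0.159 CPM), Myh15 (0.0795 CPM), Myo16 (0.0795 CPM) and Myo1a (0.159 CPM) in library 1, and Myo3b (0.0386 CPM) in library 3. Kif6 was at 0.231 CPM in microglia library 3 and at 0 in the others. Kif27 was high in microglia library 2 (2.33 CPM), the library highest in neuron, oligodendrocyte, astrocyte and ependymal markers; the ependymal and choroid plexus markers summed to 129.5, 151, 75.4, 116 and 49.8 CPM in microglia libraries 1 to 5, against 553 to 1311 CPM in bulk brain, and among them Ccdc153, Tmem212 and Dynlrb2 had counts in library 2 alone. Their part was not tested. Kif16b (25.8 CPM) was low in microglia library 5 and Myo10 (2.47 CPM) in microglia library 3. In bulk brain, Kif7 (3.5 CPM) was high in library 1, Myh7b (19.2 CPM) in library 2 and Kifc5b (2.95 CPM) in library 3.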

How the results depend on the processing

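Over up to 21 alternatives for each of 70 motor genes, 1403 values kept direction and side of the threshold, 23 lost the call, 11 gained it and 24 turned direction; 55 genes kept both under every alternative. The number higher ran from 19 (median-of-ratios scaling) to 26 (bulk brain libraries 3 to 5 left out) and lower from 33 (at least 1 CPM in 5 libraries) to 44 (no filter). Scaling moved the median log2 difference of all genes from -0.14 to -0.31 (median of ratios), -0.33 (library size) and -0.07 (upper quartile), so that small differences move with it.

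All reversals concerned genes not past the threshold with all libraries, and of the reversed values that of Myo9a without bulk brain libraries 1 and 2 alone passed it. Without bulk brain libraries 1 and 2 the differences were -0.10 (Kif3b), -0.20 (Kif9), -0.21 (Myo15b) and -0.37 (Myo9a, adjusted p = 2.3e-05). Without libraries 3 to 5 they were 0.56 (Kif18a), -0.21 (Kif19a) and 0.21 (Myo15). Kif18a turned with upper-quartile scaling (0.03) and with coding genes alone (0.07). Kif9 turned with median-of-ratios scaling (-0.04), library size (-0.05), no filter (-0.04) and DESeq2 (-0.04), and Myo15b with voom (-0.10). Leaving out 1 library gave -0.32 to 0.16 for Kif18a, -0.03 to 0.21 for Kif3b, -0.07 to 0.20 for Kif9, -0.12 to 0.53 for Myo15b and -0.14 to 0.25 for Myo9a. The cause was not tested.

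On raw counts in place of counts per kilobase, the share of myosins was 21.5% in bulk brain, of Kif5b 11.3% in bulk brain, of Kif21b in kinesin-4 99.4% in microglia and 25.7% in bulk brain (98.6 and 15.4% per kilobase), of Myh9 96.2% in microglia and 17.2% in bulk brain, of Myo1f 50.4% in microglia and of Myo5a 94.6% in bulk brain. Blood leukocyte markers higher numbered 5 with no filter or without bulk brain libraries 1 and 2, against 3. Striated muscle markers lower numbered 4 with no filter and 1 without libraries 3 to 5, against 2.

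With the replicate number as a block, 21 motor genes were higher and 36 lower; Kif7 (adjusted p = 0.056) and Kifc1 (adjusted p = 0.10) lost their calls. Depth limits genes under about 0.12 CPM, the largest value of 3 counts in a library on totals without TMM scaling.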
